A study of Mus musculus with 12 samples.

Results

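The genes examined were those of 7 proteins that mouse eosinophils store in their granules, namely Prg2, Prg3, Epx, Ear1, Ear2, Ear6 and Ear10. They were chosen by symbol, through the Ensembl identifiers of the deposited count table, and all 7 were found among its 53801 genes. The RNA was that of bone marrow and blood eosinophils of 2 genotypes, Atg5-knockout (Atg5 flox/flox eoCre Il5tg) and control (eoCre Il5tg without floxed Atg5), with 3 libraries in each of the 4 groups. In these mice the Cre recombinase is knocked into the Epx locus, so that Atg5 is excised in cells that use the Epx promoter. The Il5 transgene is driven by the T cell promoter Cd3d and raises the number of eosinophils. All 4 groups carry eoCre, heterozygous as the study states, and Il5tg. The levels of Epx therefore come from mice with a modified Epx allele throughout. The age and sex of the mice sequenced were not given in the sources used here, and no group without the Cre or without the transgene was compared here. The study counts independent experiments as its n, but whether each library of a group came from a separate mouse is not stated in the sources used here, so p-values measure the spread between these libraries. Eosinophils were enriched by depleting other cells with antibodies, and no eosinophil marker was used for positive selection. The study checked their purity by microscopy of stained cells and, for the cells sequenced, by flow cytometry with Siglec-F.

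The eosinophil's secondary granule has a crystalline core of major basic protein, encoded by Prg2, with the related protein of Prg3, and a matrix that holds eosinophil peroxidase (Epx) and the eosinophil-associated ribonucleases (Ear genes). These cationic proteins are toxic to parasites and to host cells when released. Their transcripts are made mainly while the cells mature in the bone marrow, whereas the proteins stay stored in the circulating cell.

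Total counts ran from 18885052 to 30270166 per library. Atg5 had 30.6 to 33.9 CPM (counts scaled to a common library size, with TMM factors over the 12 libraries) in Atg5-knockout and 40.5 to 45.4 CPM in control bone marrow libraries, without overlap but not past the test (log2 fold change -0.44, edgeR's adjusted p = 0.157). In blood it had 36.6 to 52.4 CPM in Atg5-knockout and 40.1 to 58.7 CPM in control libraries, with overlap. All exons are summed, so this is no check of a partial deletion. Of the eosinophil surface markers, Siglecf lay between 345 and 931 CPM and Ccr3 between 586 and 1975 CPM over all libraries, so that both defining markers were present in every library. Of the counts of blood control replicate 1, red cell markers made up 14.6%, against at most 1.42% in any other library.

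The 4 Ear genes lie on chromosome 14 and are close copies of each other. Of the first 100 coding bases, given here from the GENCODE M39 transcripts because they show how little sequence separates the copies, Ear2 differed from Ear1 at 4, Ear10 at 7 and Ear6 at 12. Capitals mark the bases that differ from Ear1.
Ear1: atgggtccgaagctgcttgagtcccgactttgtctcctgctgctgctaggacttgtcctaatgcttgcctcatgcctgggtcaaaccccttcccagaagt
Ear2: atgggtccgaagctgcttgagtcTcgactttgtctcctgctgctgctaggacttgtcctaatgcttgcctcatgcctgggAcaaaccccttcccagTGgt
Ear10: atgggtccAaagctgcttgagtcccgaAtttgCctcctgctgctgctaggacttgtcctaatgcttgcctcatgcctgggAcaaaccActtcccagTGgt
Ear6: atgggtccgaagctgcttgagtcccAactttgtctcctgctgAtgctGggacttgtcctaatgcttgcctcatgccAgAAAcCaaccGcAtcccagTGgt

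Over the whole coding sequence Ear1 and Ear2 were identical at 95.7% of 465 aligned bases, Ear2 and Ear10 at 97.0% of 468, and Ear6 and Ear1 at 87.3% of 465. Prg2 and Prg3 were identical at only 65.4% of 656 aligned coding bases. The authors' counting left out reads that map to several places, and the effect on each gene was estimated from 100-base windows of its transcript on GRCm39, the read length given in the Methods. Of these windows, 25.7% in Ear1, 22.9% in Ear2 and 25.2% in Ear10 were also found at another place in the genome or in the transcripts of another gene, mainly of Ear pseudogenes and of each other. For Ear6, Prg2, Prg3 and Epx, 0 windows were found elsewhere. Reads from these stretches could not be assigned to a single gene, and the levels of Ear1, Ear2 and Ear10 are uncertain to that extent. Ear1 also shares 17 exonic bases with the pseudogene Ear-ps9 on the same strand, so that a few of its reads can have been assigned to neither gene.

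The RefSeq start regions (GRCm38.p6) of 6 members, all but Prg2, are shown to let the copies of the Ear genes be compared at their starts. Each stretch runs from 130 bases before to 15 bases after the annotated start. Capitals mark matches, on either strand, to 4 motifs that are spelled out after the sequences.
Ear1 (chr14:43819625-43819769, minus strand): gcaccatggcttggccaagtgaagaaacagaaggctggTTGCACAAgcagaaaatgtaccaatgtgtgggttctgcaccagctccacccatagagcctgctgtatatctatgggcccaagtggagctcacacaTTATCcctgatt
Ear2 (chr14:44102524-44102668, plus strand): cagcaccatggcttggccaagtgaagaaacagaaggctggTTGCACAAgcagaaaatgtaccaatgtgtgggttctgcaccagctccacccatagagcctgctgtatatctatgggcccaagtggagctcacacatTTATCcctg
Ear10 (chr14:43923582-43923726, minus strand): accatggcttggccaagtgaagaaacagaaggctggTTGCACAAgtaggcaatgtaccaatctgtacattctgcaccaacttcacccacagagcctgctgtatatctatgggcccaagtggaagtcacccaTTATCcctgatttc
Ear6 (chr14:51853638-51853782, plus strand): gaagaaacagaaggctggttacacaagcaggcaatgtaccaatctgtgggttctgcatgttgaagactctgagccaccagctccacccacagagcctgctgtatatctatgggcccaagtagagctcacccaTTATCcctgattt
Epx (chr11:87875522-87875666, minus strand): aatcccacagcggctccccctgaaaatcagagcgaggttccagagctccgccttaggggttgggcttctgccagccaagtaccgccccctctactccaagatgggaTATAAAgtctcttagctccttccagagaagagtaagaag
Prg3 (chr2:84988085-84988229, plus strand): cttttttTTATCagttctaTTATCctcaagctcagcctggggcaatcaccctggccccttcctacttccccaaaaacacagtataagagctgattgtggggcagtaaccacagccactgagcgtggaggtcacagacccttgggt

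In the full windows of 300 bases, Ear1 and Ear2 were identical at 99.0% of aligned bases, with an unbroken identical run of 202 bases, and Ear10 was identical to Ear1 at 93.3%. The motif GATAA, bound by GATA factors, was found in 5 of the 6 windows, in all but that of Epx, and in 25.4% of 32851 promoter windows of the same length. The core of the C/EBP factor motif, TTGCNNAA, was found in Ear1, Ear2 and Ear10 and in 10.8% of all windows. The core promoter motif TATAAA was found in Epx and in 13.6% of all windows. The motif of the factor PU.1, GAGGAA, was found in 0 of the 6 and in 28.3% of all windows. No match overlapped another. As the Ear windows are copies of each other, their matches are not separate observations, and a match shows letters, not a bound site.

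Prg2, the major basic protein gene (chromosome 2, 84980461 to 84983632, plus strand, GRCm38 as in the count table), had the highest count of all genes in each of the 6 bone marrow libraries. Its CPM were 50390, 41354 and 43788 in control and 55590, 44418 and 52880 in Atg5-knockout bone marrow libraries (replicates 1 to 3). In blood they were 10253, 14750 and 23802 in control and 7039, 13625 and 12156 in Atg5-knockout libraries. Every blood library lay below every bone marrow library of its genotype, while the genotypes overlapped in both tissues. In blood Prg2 was still between the highest and the eighth highest of all genes by count (ranks 1 to 8). Rank 8 was that of control replicate 1, the library with the red cell counts, and every other blood library had rank 1 or 4.

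Prg3, its neighbour on chromosome 2 (84988215 to 84993886, plus strand), encodes a related basic protein and was far less abundant. It had 2087, 1909 and 1671 CPM in control and 2265, 1863 and 2053 CPM in Atg5-knockout bone marrow libraries. Its blood levels were 262, 381 and 629 CPM in control and 207, 415 and 375 CPM in Atg5-knockout libraries. Blood and bone marrow did not overlap, and the genotypes did.

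Epx, the peroxidase that makes hypobromous acid from bromide and peroxide (chromosome 11, 87864000 to 87875536, minus strand), showed the widest gap between tissues of the 7 genes. It had 5138, 3348 and 3601 CPM in control and 4915, 5038 and 4776 CPM in Atg5-knockout bone marrow libraries. The levels in blood were 461, 466 and 946 CPM in control and 265, 541 and 420 CPM in Atg5-knockout libraries. Control replicate 1 stood above the other control bone marrow libraries and above all Atg5-knockout ones, and control replicate 3 stood above all other blood libraries. By count, Epx held ranks 8 to 14 in bone marrow, and ranks 200 to 641 in blood.

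Ear1 (chromosome 14, 43818765 to 43875517, minus strand), the most abundant ribonuclease gene of the set, had 9033, 10097 and 7682 CPM in control and 11591, 9095 and 10463 CPM in Atg5-knockout bone marrow libraries. In blood it had 4260, 4866 and 7026 CPM in control and 3033, 5460 and 6186 CPM in Atg5-knockout libraries. The tissues did not overlap within a genotype, with the highest control blood library close below the lowest control bone marrow library.

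Ear2 (chromosome 14, 44102654 to 44103534, plus strand) had 6601, 7699 and 6099 CPM in control and 8784, 6671 and 7865 CPM in Atg5-knockout bone marrow libraries. Blood levels were 2190, 2433 and 3632 CPM in control and 1398, 2480 and 2604 CPM in Atg5-knockout libraries. Its tissues stood further apart than those of Ear1.

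Ear6 (chromosome 14, 51853699 to 51854643, plus strand), the most divergent of the 4 ribonucleases, had 6006, 6120 and 5222 CPM in control and 7288, 6094 and 6970 CPM in Atg5-knockout bone marrow libraries. In blood it had 3456, 3804 and 5444 CPM in control and 1866, 3475 and 3748 CPM in Atg5-knockout libraries. It was the only member whose control blood and control bone marrow libraries overlapped.

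Ear10 (chromosome 14, 43922720 to 43923559, minus strand) was the lowest member by far. It had 91.8, 137 and 78.0 CPM in control and 131, 109 and 118 CPM in Atg5-knockout bone marrow libraries. Blood libraries had 58.4, 37.5 and 55.5 CPM in control and 23.1, 33.1 and 80.8 CPM in Atg5-knockout libraries. Its counts came to between 0.607 and 1.37% of those of Ear1 in the same library.

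**Figure D1:**
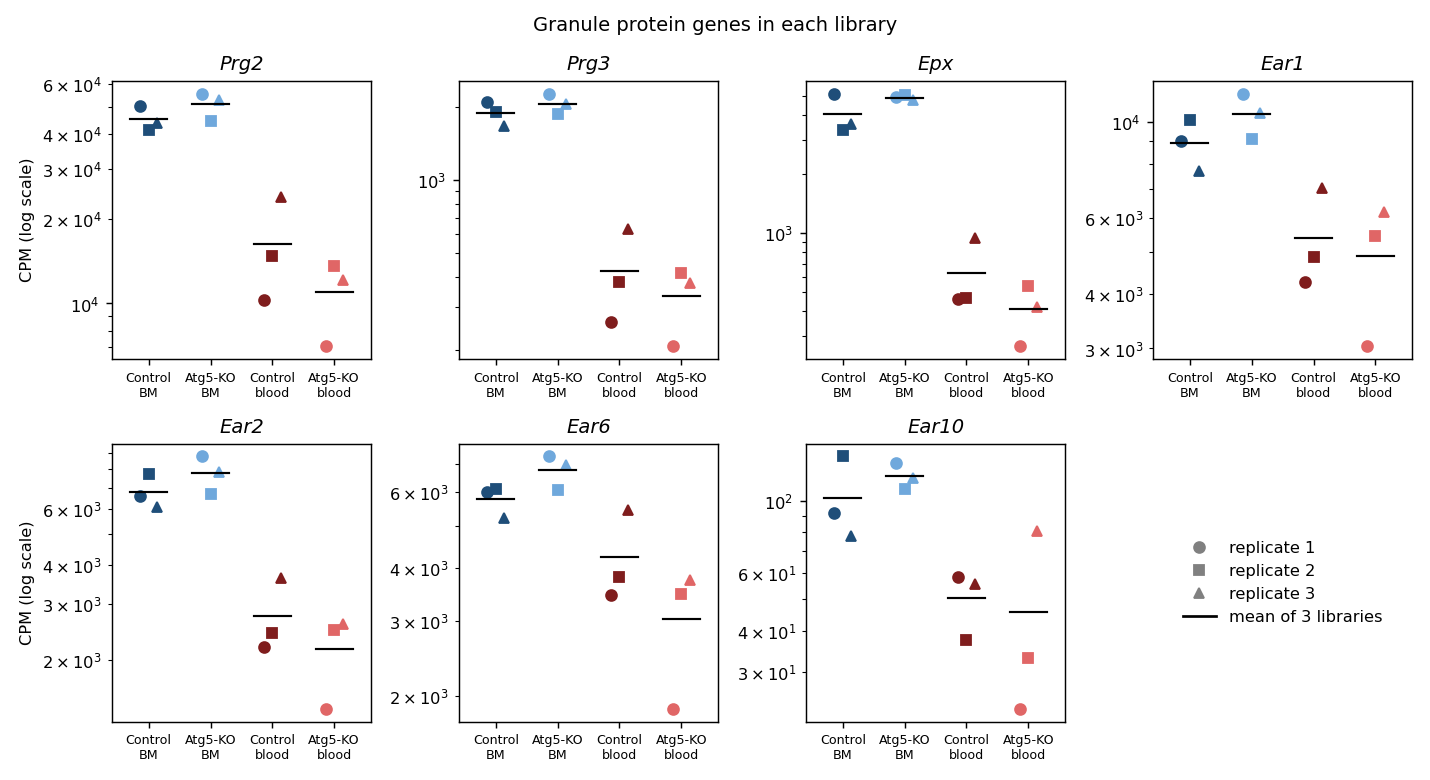
Level of each granule protein gene in every library (CPM with TMM factors, log axis), by group, with replicates 1 to 3 as circles, squares and triangles and the mean of 3 libraries as a line. All 7 genes had lower means in blood than in bone marrow (BM), while Atg5-knockout and control libraries overlapped in each tissue.

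Per kilobase of exon, Prg2 had the highest mean in every group, with 53911 ± 5579 CPM per kilobase (SD, n = 3) in control bone marrow and 19413 ± 8235 (SD, n = 3) in control blood. In control bone marrow it was followed by Ear1 with 12243 ± 1658 CPM per kilobase (SD, n = 3), Ear2 with 9457 ± 1138 and Ear6 with 6119 ± 517. Prg3 with 1991 ± 220, Epx with 1472 ± 354 and Ear10 with 150.6 ± 45.1 CPM per kilobase came last. The ranges of Ear1 and Ear2 overlapped there, as did those of Prg3 and Epx, and the other neighbours in this order did not overlap. Atg5-knockout bone marrow had the same order with no overlapping neighbours. In blood Ear6 stood above Ear2, with 4481 ± 1124 against 3827 ± 1073 CPM per kilobase (SD, n = 3) in control libraries, ranges that overlapped. The ranges of Prg3 and Epx overlapped in control blood as well. In Atg5-knockout blood the overlapping neighbours were Prg2 and Ear1, Ear6 and Ear2, and Epx and Ear10. Counted over unique 100-base windows alone, Ear2 stood above Ear6 in blood as well, with 5709 against 5333 CPM per kilobase in control libraries. The order of Ear2 and Ear6 in blood thus rests on how their length is counted, and every other place in the order was the same under both lengths.

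Together the 7 genes took 7.98 ± 0.561% (SD, n = 3) of all counts in control and 9.10 ± 0.768% (SD, n = 3) in Atg5-knockout bone marrow libraries. Their share of control blood libraries was 2.60 ± 0.883% (SD, n = 3), and that of Atg5-knockout blood libraries was 2.03 ± 0.529% (SD, n = 3). Prg2 made up 58.5 to 64.3% of the set's counts in bone marrow and 47.5 to 57.3% in blood, and the Ear genes 27.4 to 34.0% and 38.9 to 49.4%. No library of one tissue fell within the range of the other tissue for either share.

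**Figure D2:**
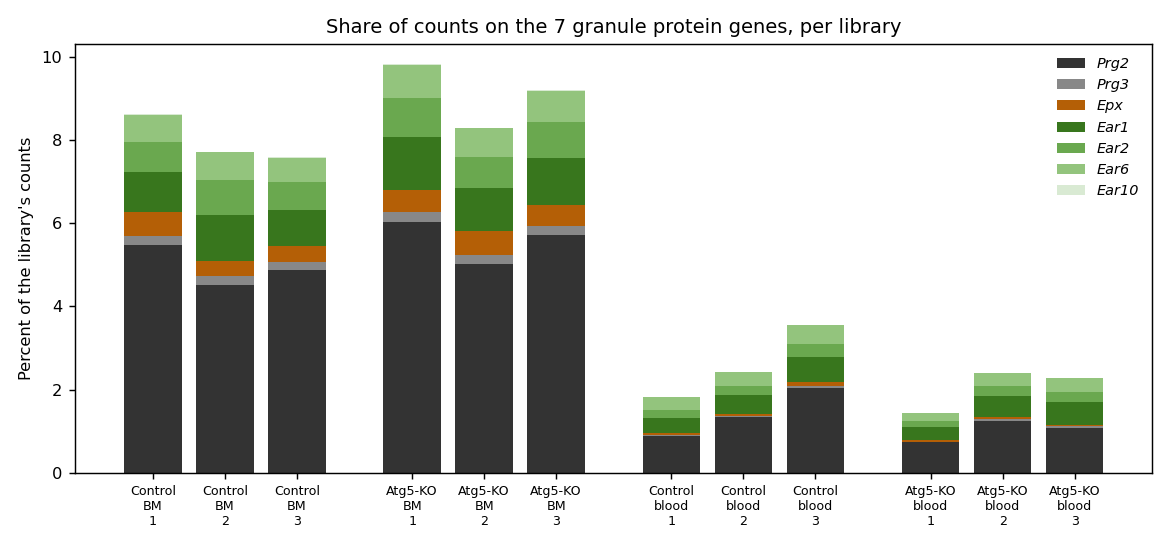
Percent of each library's counts that fell on the 7 granule protein genes, stacked by gene, with 3 libraries per group. The stacks reach 7.59 to 9.82% in bone marrow (BM) and 1.43 to 3.56% in blood, and Prg2 is the largest piece in every library.

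The comparison of blood with bone marrow eosinophils asks how the transcripts differ between the site where granules are formed and the circulation. In control mice, 6 of the 7 genes were lower in blood at an adjusted p under 0.05, all but Ear6. Of the 13669 genes tested 34.2% were called, 18% as lower. Prg3 and Epx also passed the study's fold threshold (log2 fold change beyond 2), which 5.19% of genes passed downward. Without blood replicate 1, the library with the red cell counts, the same count of 6 members was called and only Epx passed the fold threshold. In that fit 5926 of the 14099 genes tested were called, 3118 as lower, and 933 passed the fold threshold downward. With all libraries kept, the median log2 fold change of the members was -1.32, against -0.00 for all genes tested. In Atg5-knockout mice all 7 were lower, with a median of -1.83 against -0.01, where 47.6% of the 13853 genes tested were called, 24.1% as lower. There Prg2, Prg3 and Epx passed the fold threshold, which 6.13% of genes passed downward.

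Among the core proteins, Prg2 was 2.80-fold lower in blood of control mice (log2 fold change -1.49, standard error 0.31, adjusted p = 0.00645) and 4.61-fold lower in Atg5-knockout mice (-2.21, standard error 0.25, adjusted p = 0.000178). Prg3 was 4.50-fold lower in control mice (-2.17, standard error 0.31, adjusted p = 0.00105) and 6.14-fold lower in Atg5-knockout mice (-2.62, standard error 0.25, adjusted p = 6.66e-05). Epx fell most, by 6.51-fold in control mice (-2.70, standard error 0.33, adjusted p = 0.000493) and 11.9-fold in Atg5-knockout mice (-3.57, standard error 0.25, adjusted p = 1.31e-05). The core protein genes and the peroxidase gene were called under every alternative run, with and without each library.

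The ribonuclease genes differed less. Ear2 fell by 1.32 on the log2 scale in control mice (standard error 0.23, adjusted p = 0.00322) and had -1.83 in Atg5-knockout mice (standard error 0.24, adjusted p = 0.000377). Ear10 had log2 fold changes of -1.03 (standard error 0.25, adjusted p = 0.0140) and -1.37 (standard error 0.38, adjusted p = 0.0169). Ear1 had -0.74 (standard error 0.23, adjusted p = 0.0375) and -1.07 (standard error 0.25, adjusted p = 0.00728). Ear6 had a log2 fold change of -0.46 in control mice (standard error 0.22, 95% interval -0.95 to 0.03, adjusted p = 0.130), which did not pass, and fell by 1.15 in Atg5-knockout mice (standard error 0.25, adjusted p = 0.00470).

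The calls of Ear1 and Ear6 in control mice and of Ear10 changed with the library left out. Ear1 in control mice was lost without blood replicate 2 (adjusted p = 0.135) and without any 1 of the 3 bone marrow libraries (0.0746 to 0.135), with log2 fold changes of -0.85 to -0.65. Ear6 in control mice passed without blood replicate 3 (-0.67, adjusted p = 0.0363) and with library size alone as the scaling (-0.77, adjusted p = 0.0188), a scaling that moved the median of all genes by -0.31 in control and -0.23 in Atg5-knockout mice. With it, 1308 genes were called higher and 3906 lower in control mice, where TMM gave 2212 and 2466, and 2258 and 4333 in Atg5-knockout mice, where TMM gave 3256 and 3336. Ear10 was lost in control mice without bone marrow replicate 2 (-0.77, adjusted p = 0.0561) and in Atg5-knockout mice without blood replicate 2 (-1.19, adjusted p = 0.0701) or bone marrow replicate 1 (-1.31, adjusted p = 0.0577).

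Every blood library lay below every bone marrow library for 6 of 7 members in control mice, where this held for 26.6% of genes, and for 7 of 7 in Atg5-knockout mice, where it held for 32.3%. These are bulk samples, in which fewer cells of a type and less RNA per cell cannot be told apart. Markers of other stages and cells moved with the tissue. All 10 markers of proliferating cells fell in blood in both genotypes (median log2 fold change -4.35 in control and -4.95 in Atg5-knockout mice), from a summed level of 1716 to 2361 CPM in bone marrow to 154 to 209 CPM in blood. All 5 markers of neutrophil precursors fell as well, from 2251 to 3569 CPM to 10.3 to 19 CPM, and the 10 markers of mature neutrophils summed to 19701 to 28318 CPM in bone marrow and 13451 to 21161 CPM in blood. The 6 eosinophil surface markers went the other way for 5 genes in each genotype, with sums of 1881 to 2944 CPM in bone marrow and 3563 to 5819 CPM in blood. Il5ra, the exception in control mice, fell by 0.65 on the log2 scale. B cell markers summed to 334 to 371 CPM in bone marrow and ranged from 177 to 2225 CPM in blood, and T cell markers from 6.69 to 8.54 CPM and from 24.1 to 247 CPM. Of the tested B cell markers 3 of 6 rose in control and 6 of 8 in Atg5-knockout mice, and of the T cell markers 2 of 3 and 7 of 7. Red cell markers had a median log2 fold change of 3.18 in control mice (5 of 10 higher, 0 lower) and -1.47 in Atg5-knockout mice (0 higher, 5 lower). Of 8 platelet markers 6 rose in control mice, and 2 rose and 1 fell in Atg5-knockout mice. Of 6 tested markers of basophils and mast cells, 1 rose and 4 fell in each genotype. Of 10 markers of monocytes and macrophages, 4 rose and 1 fell in control mice, and 3 rose and 3 fell in Atg5-knockout mice. No marker of the proliferating, neutrophil or eosinophil lists was at 0 in any library. The part of these cells in the fall of the granule genes was not tested.

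**Figure D3:**
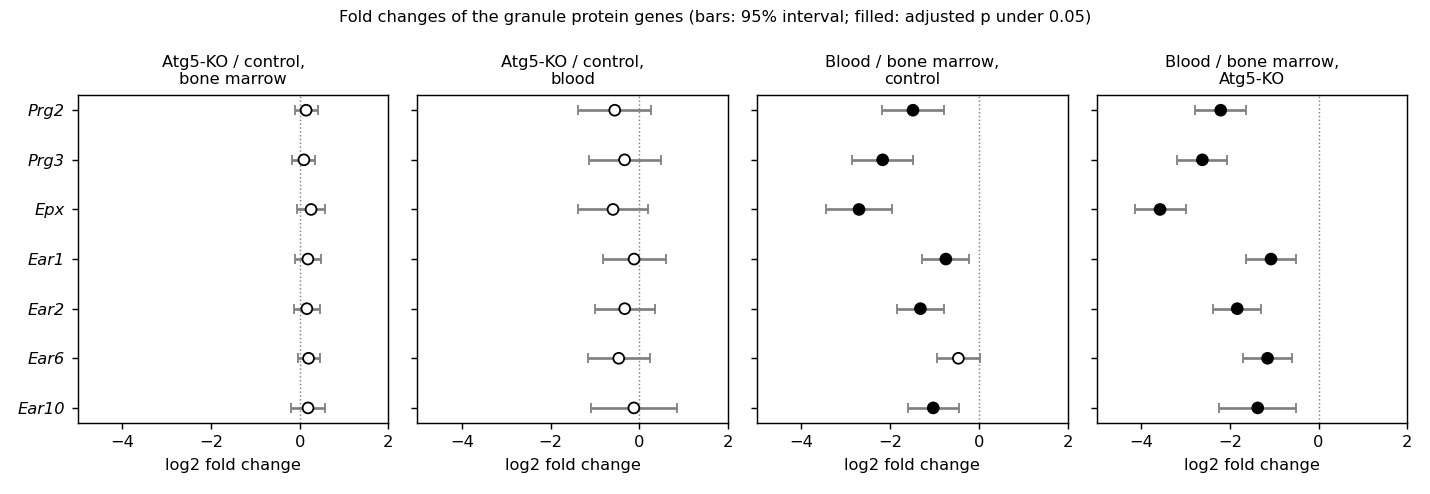
Log2 fold changes of the 7 genes in the 4 comparisons, with 95% intervals as bars and filled points at an adjusted p under 0.05 (edgeR, 6 libraries per comparison). The genotype comparisons hold no filled point, and blood against bone marrow holds 6 in control and 7 in Atg5-knockout mice.

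Not all members fell to the same extent in these libraries. This is described by their ratios within a library, which need no scaling between libraries. The count of Epx was 8.10 to 11.3% of that of Prg2 in bone marrow and 3.16 to 4.49% in blood. Prg3 stood at 3.82 to 4.62% of Prg2 in bone marrow and 2.55 to 3.09% in blood. Ear2 stood at 73.1 to 79.4% of Ear1 in bone marrow and 42.1 to 51.7% in blood. In each of these 3 ratios no blood library reached the range of the bone marrow libraries. Between tissues, Ear10 against Ear1 overlapped in both genotypes, Epx against Prg3 in control mice and Ear6 against Ear1 in Atg5-knockout mice. No ratio passed the permutation test given below.

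Between genotypes, all 3 ratios among Ear1, Ear2 and Ear6 stood apart in blood. Ear6 came to 81.1, 78.2 and 77.5% of Ear1 in control and 61.5, 63.7 and 60.6% in Atg5-knockout blood libraries, and to 60.6 to 68.0% over all bone marrow libraries. The control blood libraries were the ones outside the common range. Ear2 came to 50.01 to 51.7% of Ear1 in control and 42.1 to 46.1% in Atg5-knockout blood libraries. Ear6 came to 149.9 to 157.8% of Ear2 in control and 133 to 144% in Atg5-knockout blood libraries. Prg3 came to 2.55, 2.58 and 2.64% of Prg2 in control and 2.94, 3.04 and 3.09% in Atg5-knockout blood libraries, again without overlap. Of 8 ratios examined, 4 did not overlap between genotypes in blood, 0 in bone marrow, and 6 between tissues in each genotype. The same count was not made for ratios of other genes, so these counts cannot be called high or low. The 8 ratios share genes and were chosen with the values known. With 3 against 3 libraries the exact two-sided permutation test cannot go below p = 0.1, which these ratios reached, and adjusted over the 32 comparisons they had p = 0.2, so that none passed.

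**Figure D4:**
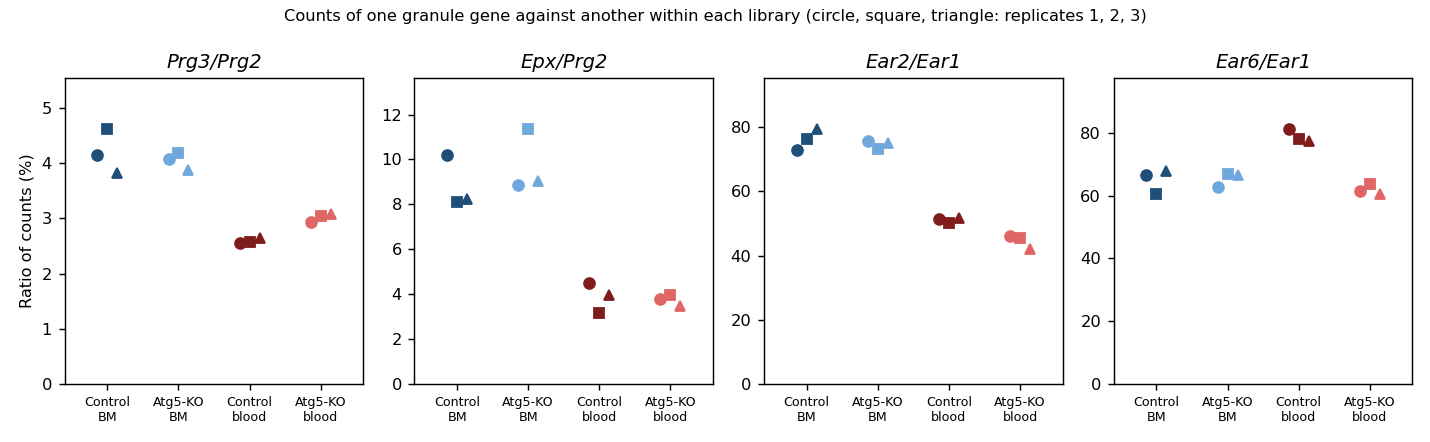
Counts of one granule gene as a percent of another within each library, by group, with replicates 1 to 3 as circles, squares and triangles and axes from 0. Epx against Prg2, Prg3 against Prg2 and Ear2 against Ear1 were lower in every blood than in every bone marrow (BM) library, and Ear6 against Ear1 was highest in control blood, at 77.5 to 81.1%.

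The comparison of Atg5-knockout with control eosinophils asks whether the loss of this autophagy gene alters the granule transcripts. In bone marrow edgeR called 0 of the 7 genes (adjusted p under 0.05), 0 had an unadjusted p under 0.05, and 0 were called by DESeq2 or limma-voom, where 0.348% of the 13781 genes tested were called by edgeR. The genotypes overlapped for all 7, where 8.68% of genes had every Atg5-knockout library above and 5.67% below every control library. All 7 estimates were above 0 under every alternative, the least for Prg3 (log2 fold change 0.10, 95% interval -0.16 to 0.36, adjusted p = 0.835) and the most for Epx (0.26, 95% interval -0.05 to 0.57, adjusted p = 0.605). Prg2 had 0.15 (95% interval -0.11 to 0.40, adjusted p = 0.739). The 4 Ear genes lay between 0.16 and 0.20, and the median of the 7 was 0.19 against 0.00 for all genes tested. Markers of proliferating cells, of the eosinophil surface and of red cells were set side by side by genotype in bone marrow. Those of proliferating cells summed to 2001 to 2361 CPM in Atg5-knockout and 1716 to 1925 CPM in control libraries, and those of the eosinophil surface to 1881 to 2443 and 2746 to 2944 CPM, both without overlap and with 0 markers called. Red cell markers summed to 1880 to 6402 and 1269 to 2278 CPM, and these and the sums of all other marker lists overlapped. The median log2 fold change of the red cell markers was 1.35, and 1 of 10 was called. The part of any of these cells in the values of the members was not tested. The intervals of the members end at 0.58 or below, so that a rise by more than 0.58 on the log2 scale lay outside each of them. Epx passed without control replicate 1, the library in which it was highest (log2 fold change 0.46, adjusted p = 0.0496). In that fit 219 of the 14165 genes tested were called, against 48 of 13781 in the main fit.

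In blood 0 of the 7 genes were called, 0 had an unadjusted p under 0.05, and 0 were called by DESeq2 or limma-voom, where 0.0371% of the 13460 genes tested were called. Again the genotypes overlapped for all 7, where 3.53% of genes lay wholly above and 4.06% wholly below. The estimates ran from -0.59 for Epx (95% interval -1.39 to 0.20, unadjusted p = 0.126) and -0.55 for Prg2 (-1.37 to 0.27, unadjusted p = 0.161) to -0.12 for Ear1 (-0.83 to 0.59) and Ear10 (-1.09 to 0.85). Ear6 had -0.46 (-1.16 to 0.23), and Prg3 and Ear2 had -0.33 each. The median of the 7 was -0.33 against 0.01 for all genes tested. Platelet markers summed to 77.8 to 80.8 CPM in Atg5-knockout and 113 to 390 CPM in control blood libraries, without overlap. Red cell markers summed to 4582 to 7083 and 5935 to 167942 CPM, and these and the sums of all other marker lists overlapped. The median log2 fold change was -2.26 for platelet and -3.56 for red cell markers, with 0 called in either list. The part of these cells in the members' values was not tested. Blood libraries spread more than bone marrow libraries, with a biological coefficient of variation of 0.365 against 0.146, and a fall by 1 on the log2 scale lay within the 95% interval of 6 of the 7 genes, all but Ear1. Control replicate 3 held the highest value of 6 members and Atg5-knockout replicate 1 the lowest of all 7. With a library left out, the median of the members ran from -0.07 (without control replicate 3) and -0.10 (without Atg5-knockout replicate 1) over -0.41 (without control replicate 2) and -0.52 (without Atg5-knockout replicate 2) to -0.58 (without control replicate 1, the library with the red cell counts) and -0.62 (without Atg5-knockout replicate 3). Without control replicate 1, Prg3 had -0.58 and Prg2 -0.80, and no member was called.

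Blood libraries that shared a replicate number also shared deviations from their group means. This was read from these same counts, and the labels give no pairing. Pairing the blood libraries by number as a block changed no member's call. In the paired fit, however, 4 of the 7 genes had an unadjusted p under 0.05, where the unpaired fit had 0. They were Prg2 (0.00869), Ear6 (0.0108), Epx (0.0392) and Ear2 (0.0483). Over all 13460 genes tested, 1021 had an unadjusted p under 0.05 in the paired fit and 347 in the unpaired fit. The 4 genes also varied together over the blood libraries (r of 0.926 to 0.987), so they are not separate observations. The paired log2 fold changes were -0.52 for Prg2 (adjusted p = 0.518), -0.57 for Epx (adjusted p = 0.652) and -0.50 for Ear6 (adjusted p = 0.524). The difference of the genotype effect between blood and bone marrow was not called for any member by edgeR's interaction test in 12 libraries, in which 0% of 14712 genes were called. It was -0.90 for Epx (standard error 0.42, unadjusted p = 0.0529, adjusted p = 0.942), -0.75 for Prg2 (standard error 0.41, unadjusted p = 0.0891) and -0.71 for Ear6 (standard error 0.34, unadjusted p = 0.0556). The other 4 members lay between -0.54 and -0.35, and DESeq2 and limma-voom called 0 members.

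Genes that work with these proteins were followed in lists. None of their tested members was called between genotypes in either tissue. Between tissues, their counts stand beside 16.2% of all genes tested that rose in blood and 18% that fell in control mice, and 23.5% and 24.1% in Atg5-knockout mice. Among 15 ribonuclease A relatives, 6 were tested in control mice, of which 2 rose and 2 fell in blood. Rnase6, an antimicrobial ribonuclease, rose by 1.07 on the log2 scale (standard error 0.22, adjusted p = 0.00681), while Rnase12 had -1.09 (standard error 0.23, adjusted p = 0.00763) and Rnase2a -2.54 (standard error 0.60, adjusted p = 0.0113). In Atg5-knockout mice 2 of 7 rose and 2 fell. Per kilobase, Rnase12 was at 155 CPM in control bone marrow, near Ear10, and Rnase6 at 59.5 CPM in bone marrow and 126 CPM in blood of control mice, where Ear10 had 74.5. Rnh1, which inhibits these ribonucleases and was listed with them, rose by 0.71 on the log2 scale in control mice (standard error 0.21, adjusted p = 0.0292) and by 0.50 in Atg5-knockout mice (standard error 0.17, adjusted p = 0.0356).

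Of 4 peroxidases related to Epx only Mpo, the neutrophil enzyme, was tested between tissues, with a log2 fold change of -7.20 in control and -7.63 in Atg5-knockout mice. Mpo also belongs to the neutrophil precursor markers given above. Of 7 genes reported here for the synthesis of haem, which the peroxidases bind, 2 rose and 3 fell in blood of control mice, and 0 rose and 3 fell in Atg5-knockout mice. Alad had a log2 fold change of -1.42 and Alas1, the rate-limiting synthase outside red cells, one of -1.22 in control mice (adjusted p = 0.00430 and 0.00993).

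Of 32 tested genes for granule matrix, sorting and exocytosis, 10 rose and 1 fell in blood of control mice, and 12 rose and 1 fell in Atg5-knockout mice. Srgn, the serglycin core protein that binds cationic proteins in granules, rose by 1.97 on the log2 scale in control mice (standard error 0.23, adjusted p = 0.000385) and by 2.22 in Atg5-knockout mice. Vamp2, a vesicle fusion protein, rose by 1.17 (standard error 0.21, adjusted p = 0.00321) and Sytl3, a synaptotagmin-like protein, by 4.12 (standard error 0.39, adjusted p = 0.000128). The next list held 16 transcription factors and other regulators of granule genes or of granulocyte development. Of these, 3 rose and 5 fell in control mice, and 5 rose and 6 fell in Atg5-knockout mice. In control mice Cebpb rose by 3.02 (standard error 0.24, adjusted p = 4.81e-05). Trib1, a regulator that is not itself a transcription factor, rose by 1.62 (standard error 0.23, adjusted p = 0.00102). Gfi1, a repressor needed for granulocyte maturation, fell by 3.72 (standard error 0.51, adjusted p = 0.000900).

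The genes whose log2 CPM followed each member most closely over the 12 libraries were mostly other members or genes that were also high in bone marrow. As the libraries fall into the 2 tissues, these Pearson correlations mainly follow the tissue, and values within groups, after the group means are removed, are given beside them. For Prg2 the closest gene was Prg3 (r = 0.992, within groups 0.984), followed by Cdca4, Ear2, Gng12 and Epx. Prg3 was followed by Prg2, Epx, Ear2, Gng12 and Tmed3. For Epx they were Cptp (r = 0.992, within groups 0.866), Slbp, a histone mRNA-binding protein, Prg3, Prss57 and St14. For Ear1 they were Ear2 (r = 0.973, within groups 0.991), Ear6, Csrp1, Tbcc and Nat2. Ear2 was followed by Prg3, Prg2, Cdca4, Ncam1 and Gng12, so that over both tissues it stood nearer to the core protein genes and within groups nearer to Ear1. Ear6 was followed by the pseudogene Ear-ps9 (r = 0.983), Ear1, Stxbp5, Tbcc and Csrp1, and Ear10 by Znrf2 (r = 0.924), Slc39a6, Rsrc1, Ear1 and Ttc13. Within groups, Ear1, Ear2 and Ear6 deviated together with r between 0.979 and 0.991, and Ear10 followed Prg2, Prg3 and Epx with r of 0.30, 0.379 and 0.253. These values share the libraries' depth and scaling, which also tie genes together.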

How the data were processed

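Messenger RNA of 12 libraries was sequenced by the authors, who aligned the reads with HISAT2 2.2.1 and counted them per gene with featureCounts (2.0.1 in the file header) as whole counts without normalization, with an Ensembl release 92 annotation of GRCm38 in the header. The Methods name a later annotation on GRCm39 and single-end reads, whereas the header records a paired-end setting and no strand setting. Reads from a gene and an antisense partner therefore cannot be told apart. The deposited counts were analysed in R 4.3.3 with edgeR 4.0.16: TMM factors, a filter on low counts (minimum count 10, total 15), the quasi-likelihood test with 6 libraries per comparison (12 for the interaction) and Benjamini-Hochberg adjustment over all genes tested, called at 0.05. DESeq2 1.42.0 and limma-voom 3.58.1, other scalings and filters, a replicate block and the omission of each library were alternatives. The fitting procedure was tested on simulated data.

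The members and lists were chosen with earlier results of these data known. Besides the members, the text names the 3 genes of lowest p per list in blood against bone marrow of control mice, any list gene called between genotypes, and the 5 genes (mean CPM of at least 10) most correlated with each member. One of these list genes is not reported here. Of 33 genes listed for granule matrix, sorting and exocytosis, 32 were analysed here. Same-numbered blood libraries of the 2 genotypes deviated together (r = 0.568, 0.262 and 0.350), and pairing them by number was run as an alternative. This pairing was read from the counts and is not given by the labels, so the main blood fit is unpaired. B cell markers summed to 2225 CPM in Atg5-knockout and 1293 CPM in control blood replicate 1, against 177 to 426 CPM in the other blood libraries. Total counts ran from 18885052 to 30270166.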

Additional observations from a re-analysis of the deposited data

How the results depend on the processing

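The 7 members kept their direction and call in bone marrow between genotypes under every alternative except the omission of control replicate 1, where Epx passed and 1 member was called. Over all genes, 219 of the 14165 tested were called with that omission. In blood between genotypes no member was called under any alternative, but the direction turned in leave-one-out fits for Prg3 (-0.58 to 0.070), Ear1 (-0.33 to 0.12) and Ear10 (-0.83 to 0.19). Ear1 had 0.12 without Atg5-knockout replicate 1 or without control replicate 3, Ear10 had 0.19 and 0.070 without Atg5-knockout replicates 1 and 2, and Prg3 had 0.070 without control replicate 3. The cause was not tested.

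Counts over all genes moved more. In bone marrow the 48 called genes became 196 with DESeq2, 12 with edgeR in 12 libraries, 420 with no filter, 23 with the replicate block and 18 to 219 with a library left out. In blood the 5 became 22 with DESeq2 in 6 and 77 in 12 libraries, 16 with edgeR in 12 libraries, 77 with no filter, 10 with the replicate block and 2 to 6 with a library left out. The 4678 genes called between tissues in control mice became 2627 to 5926 with a library left out. The interaction called 0 genes (740 at an unadjusted p under 0.05), 15 with DESeq2 and 119 with no filter, none of them a member. Numbers did not pair the libraries between tissues or in bone marrow, where r was 0.146 or less. With the replicate block there, Ear1 in control mice had -0.77 (adjusted p = 0.0603) and 5 members were called, and 7 in Atg5-knockout mice. Over all genes, this block called 4912 of 13669 between tissues in control and 5917 of 13853 in Atg5-knockout mice.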

Other observations

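Among the relatives of the Ear genes, Rnase2a fell in blood of control mice, a call lost without bone marrow replicate 1 (adjusted p = 0.0546), and had -2.05 in Atg5-knockout mice (adjusted p = 0.0713). Alas2, the haem synthase of red cells, had a log2 fold change of 1.51 between Atg5-knockout and control bone marrow (edgeR, adjusted p = 0.0412), a call lost in 9 alternatives.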
